A study of Mus musculus with 6 samples.

Results

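The genes described here make, hold, sense and remove hyaluronan. They are 10 mouse genes, listed by name and not by a cut on measured values. Earlier results of these data were known when they were chosen. Among them are the hyaluronan synthases Has1, Has2 and Has3, the proteoglycans Vcan and Acan, and the link protein Hapln1. The others are the secreted binding protein Tnfaip6, the receptor Cd44 and the hyaluronidases Hyal1 and Hyal2. All 10 are among 23044 genes that had a named probe on both array designs, and 9 of the 10 also have an entry in the authors' deposited gene table. Hapln1 was named through the RefSeq accession of its probe.

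RNA was measured in stromal cells sorted from transgenic mice in which the smooth muscle actin (Acta2) promoter drives GFP. Both groups carry this reporter and were sorted as cells negative for CD45, found on white blood cells, and for CD31, found on endothelial cells. The skin group has low GFP and came from the dermis; its labels name fibroblast-like cells. The wound group has high GFP and came from wounds 7 days after injury; its labels name myofibroblasts, the contractile cells of healing tissue. The age and strain of the mice and any pooling of animals are not given in the sources used here. Each group has 3 1-colour Agilent arrays, replicates 1 and 2 on array design 026655 and the array called replicate 3 on design 028005. The promoter is active in several contractile cell types, so the sort selects on reporter level, not on 1 cell type. Reporter level and injury differ together between the groups and cannot be told apart.

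Hyaluronan is a long unsulphated sugar chain that the synthases build at the plasma membrane from UDP-glucuronic acid and UDP-N-acetylglucosamine and push out of the cell as it grows. Outside the cell it is bound by large proteoglycans of the lectican family, such as versican (Vcan) and aggrecan (Acan), whose grip is locked by link proteins, and it is remodelled by TSG-6 (Tnfaip6), which moves heavy chain proteins onto it. Cells sense it mainly through CD44. Long chains are cut by cell-surface and lysosomal hyaluronidases, and in skin repair a hyaluronan-rich, versican-rich matrix surrounds migrating and contracting fibroblasts.

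Signals are given relative to the 75th percentile of the array, so that 1 is the level of that percentile. A difference is wound minus skin on the log2 scale, from a limma model with the array design as a term, and a call is a Benjamini-Hochberg adjusted p under 0.05 over all 16738 genes tested. A signal depends on the probe, so levels of different genes are not ranked. The arrays had 64.4% to 72.6% of their spots well above background and 0 saturated spots. Array-wide correlations were 0.970 to 0.989 within a group and 0.901 to 0.923 between groups. Nothing in the labels ties the replicates to separate animals, and a p-value here reflects the spread among these arrays, possibly technical. In sorted bulk cells, a change in the mix of cells and a change of RNA per cell cannot be told apart.

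As the check of the sort, Acta2 itself had relative signals of 3.23, 3.69 and 9.52 on skin replicates 1, 2 and 3 and of 102.6, 81.9 and 239.6 on wound replicates 1, 2 and 3. It was 26.1-fold higher in wound cells (log2 difference 4.70, SE 0.16, adjusted p = 5.19e-05), which the sort itself selects for. Of the fibroblast markers, all 10 were detected on every array, which bears on the labelled cell type. The 2 brightest did not pass: Col1a2 differed by 0.02 (adjusted p = 0.925) and Dcn by -0.52 (adjusted p = 0.0601). Of the 10, Pdgfra (-1.30, adjusted p = 0.00113) and Fbln1 (-1.20, adjusted p = 0.00446) fell. Fn1 rose (1.32, adjusted p = 0.00721), and 7 did not pass.

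The promoters of the genes on which the results below turn are shown first. RefSeq sequence of build GRCm38.p6 was matched by symbol for 8 of the 10 genes; Has2 and Has3 have no entry in the table used. Each window runs 5′ to 3′ on the gene's own strand from 250 bases before the transcription start to 50 bases after it. Cd44 (chr2:102901616-102901915, minus strand) and Vcan (chr13:89742463-89742762, minus strand) are shown because both rose in wound cells. Hyal1 (chr9:107576700-107576999, plus strand) and Hyal2 (chr9:107568913-107569212, plus strand) are shown as neighbours with estimates of opposite sign. The rise of Hyal2 was marginal. Capitals mark every match to the motifs searched.
Cd44: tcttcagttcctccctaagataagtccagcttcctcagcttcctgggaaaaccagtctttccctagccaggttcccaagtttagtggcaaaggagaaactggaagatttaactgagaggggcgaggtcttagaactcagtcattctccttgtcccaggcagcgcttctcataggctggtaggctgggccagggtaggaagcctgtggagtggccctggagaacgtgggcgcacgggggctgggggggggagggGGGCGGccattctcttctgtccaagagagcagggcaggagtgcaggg
Vcan: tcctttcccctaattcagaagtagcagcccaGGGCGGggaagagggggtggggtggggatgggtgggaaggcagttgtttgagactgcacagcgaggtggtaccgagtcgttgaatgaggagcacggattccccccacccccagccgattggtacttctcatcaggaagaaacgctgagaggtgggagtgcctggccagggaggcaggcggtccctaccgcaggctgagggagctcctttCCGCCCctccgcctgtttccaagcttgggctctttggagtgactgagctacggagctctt
Hyal1: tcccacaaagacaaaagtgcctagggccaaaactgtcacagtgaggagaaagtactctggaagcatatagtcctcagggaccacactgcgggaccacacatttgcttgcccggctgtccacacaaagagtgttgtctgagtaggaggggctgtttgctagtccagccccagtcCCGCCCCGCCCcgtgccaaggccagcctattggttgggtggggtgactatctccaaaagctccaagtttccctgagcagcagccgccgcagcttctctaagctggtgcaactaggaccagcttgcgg
Hyal2: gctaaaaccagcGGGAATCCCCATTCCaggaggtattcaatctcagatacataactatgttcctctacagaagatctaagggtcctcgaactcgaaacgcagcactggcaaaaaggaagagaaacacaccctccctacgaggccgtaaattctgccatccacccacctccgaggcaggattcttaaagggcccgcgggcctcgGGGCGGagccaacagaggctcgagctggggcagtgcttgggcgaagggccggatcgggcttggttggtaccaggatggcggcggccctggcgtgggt

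The motifs were searched on both strands: the AP-1 site TGANTCA, the TEAD site GGAATG, the GC box GGGCGG, the TATA motif TATAAA, the CArG box bound by serum response factor, and the NF-kB site. The GC box was found in 6 of the 8 windows, against 35.7% of 32851 promoters of the same length. The share of G and C was 47% in the Tnfaip6 window and 54.3% to 74% in the others, against a median of 52.7% over all promoters. The counts of motifs were not adjusted for this. In the printed windows it is the only motif of Cd44 (bases 254 to 259), of Vcan (bases 32 to 37 and 241 to 246) and of Hyal1 (bases 174 to 179 and 179 to 184, which share a base). Hyal2 has a GC box at bases 204 to 209, an NF-kB site at bases 13 to 22 and a TEAD site at bases 22 to 27, and the NF-kB and TEAD sites share a base. The TEAD site was in 3 of the 8 windows (Acan, Tnfaip6 and Hyal2; 14.7% of all promoters), and the NF-kB site in 2 (Acan and Hyal2; 6.93%). The AP-1 site was in 1 window, that of Tnfaip6 (7.81%). The TATA motif and the CArG box had 0 matches in the 8 windows, against 13.6% and 1.63% of all promoters. These matches describe letters only, and no binding was measured here.

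Of the 10 genes, 8 passed the threshold between wound and skin cells. Has2, Has3, Vcan, Cd44 and Hyal2 rose, Has1, Hapln1 and Hyal1 fell, and Acan and Tnfaip6 did not pass. Over all genes tested, 34.1% were called, 18.5% as higher and 15.6% as lower, a balance that turned with the 75th percentile of probes detected on all arrays (2599 higher, 2989 lower) and in the authors' deposited table (2493 higher, 2710 lower). The median difference of the 10 genes was 0.17 and that of all genes 0.04. With 10 genes on both sides of 0, this median turned on the setting: it was -0.04 with normexp background correction, 0.04 without skin replicate 2, 0.55 in the authors' deposited table and 0.61 in the fit limited to genes above background on every array, the last 2 without Hapln1. All 10 passed the filter on low signals, which asks for a probe well above background on every array of at least 1 group; 9 were above background on all 6 arrays, and Hapln1 passed through skin cells alone, the group where it is high. In the fit limited to genes above background on all 6 arrays, 8 of 9 were called, Acan among them, against 33.5% of all genes.

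**Figure D1:**
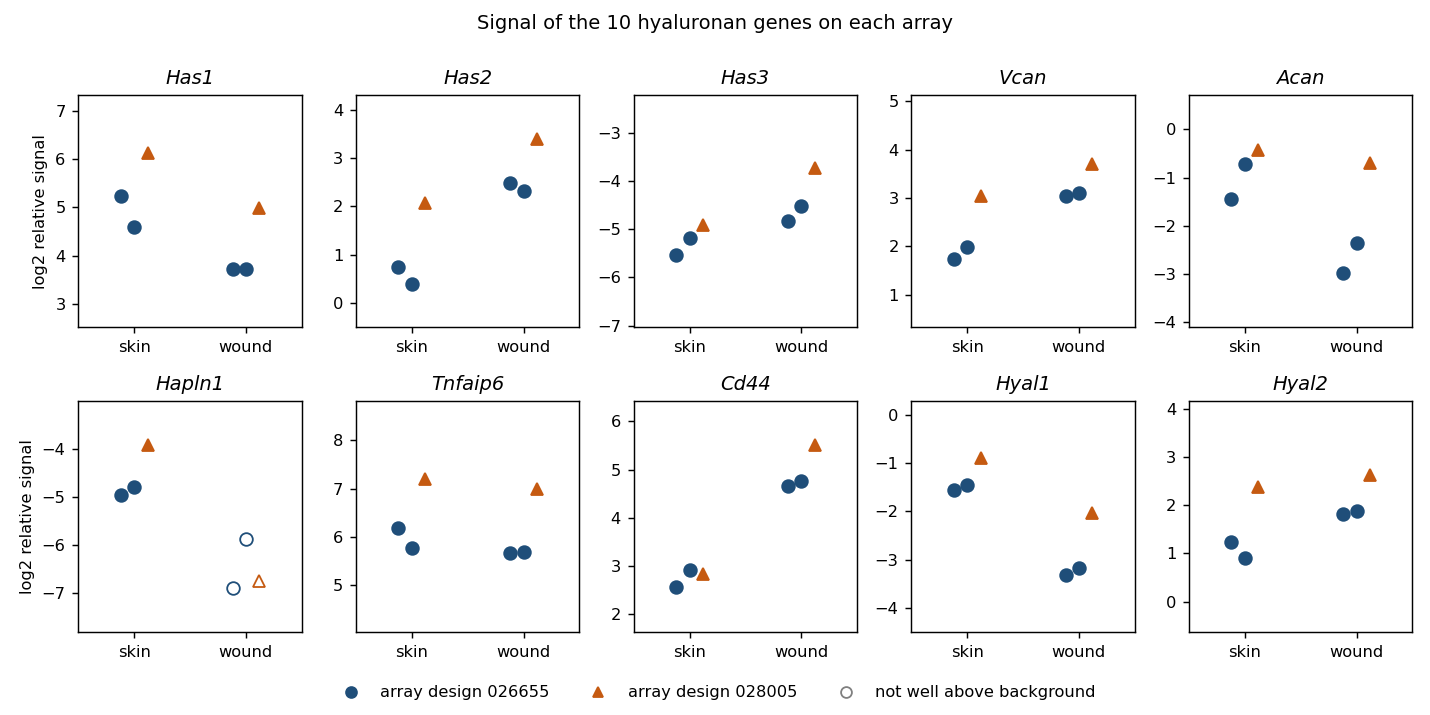
Log2 relative signal of each of the 10 genes on each array (0 is the array's 75th percentile; each panel has its own range), with 1 point per array, circles for design 026655, triangles for design 028005 and open points where the probe was not well above background. Cd44, Has2, Has3 and Hyal1 separate the groups on all 6 arrays, and Hapln1 does so with open points on the 3 wound arrays.

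**Figure D2:**
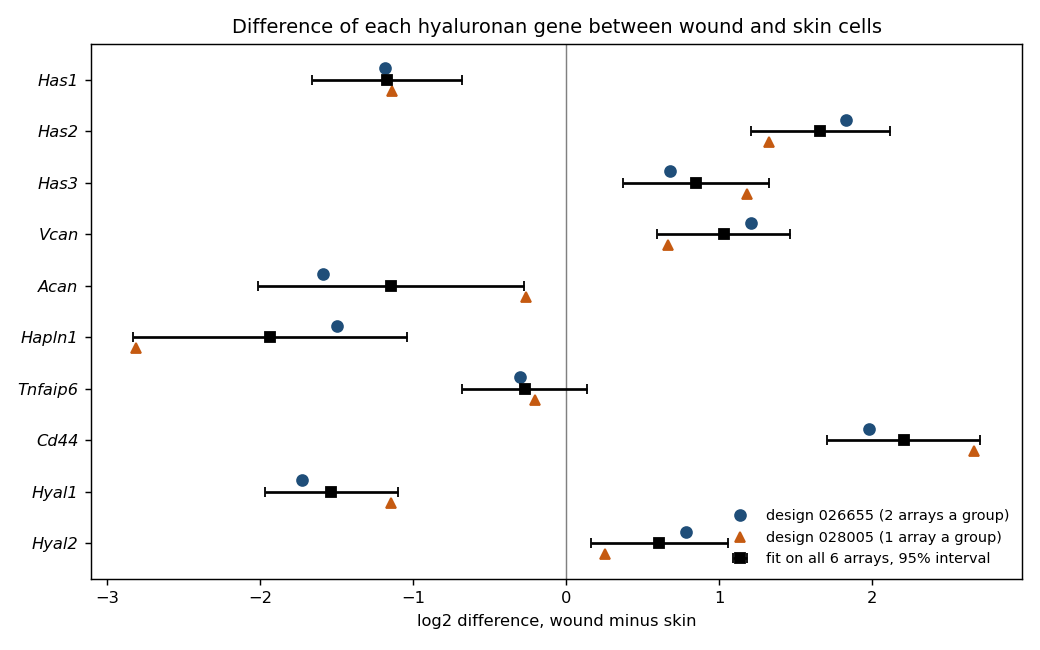
Difference of wound minus skin on the log2 scale for each of the 10 genes: squares give the fit on 6 arrays with its 95% confidence interval, circles the difference on design 026655 and triangles that on design 028005. Cd44 has the highest estimate at 2.20 and Hapln1, drawn at its measured wound values, the lowest at -1.94, while the interval of Tnfaip6 spans 0; intervals are not adjusted for the number of genes.

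The synthases went in different directions. Has2, the synthase linked to long chains and needed for embryonic development, had relative signals of 1.68, 1.32 and 4.22 in skin cells and of 5.60, 4.98 and 10.6 in wound cells. Every wound array lay above every skin array, although skin replicate 3 came close to the wound arrays of the other design. Has2 was 3.16-fold higher in wound cells (95% confidence interval 2.30 to 4.33; log2 difference 1.66, SE 0.19, adjusted p = 0.00113), with differences of 1.83 on design 026655 and 1.33 on design 028005. Has1, a second synthase of the same family, had relative signals of 37.6, 24.0 and 69.9 in skin cells and of 13.2, 13.1 and 31.7 in wound cells. Within each design the wound arrays were below the skin arrays, but wound replicate 3 lay above skin replicate 2. Has1 was 2.25-fold lower in wound cells (95% confidence interval 1.60 to 3.16; log2 difference -1.17, SE 0.20, adjusted p = 0.00616), by a near equal amount on design 026655 (-1.19) and on design 028005 (-1.14).

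The opposite course of Has1 and Has2 can be read within arrays, where any scaling factor cancels. The log2 signal of Has2 minus that of Has1 moved by 3.24, 2.78 and 2.47 from skin to wound in replicates 1, 2 and 3, a mean of 2.83 ± 0.39 (SD, n = 3). The ratio of Has2 to Has1 probe signal was thus 7.11-fold higher in wound cells. This ratio restates the differences of Has2 and Has1 given above and is no separate evidence. The labels do not pair arrays that share a replicate number. The exact 2-sided permutation test over the arrays gave p = 0.1, the smallest p that 3 against 3 allows. This is before any adjustment over the 2 such ratios tested here. The test exchanged arrays freely across the array designs. With exchange kept within each design, the smallest possible p would be larger.

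Has3, the synthase linked to shorter chains, was dim. Its relative signals were 0.0216, 0.0276 and 0.0332 in skin cells and 0.0352, 0.0433 and 0.0755 in wound cells. The groups did not overlap, but the highest skin and the lowest wound array nearly met. Has3 rose 1.80-fold (log2 difference 0.84, SE 0.20, adjusted p = 0.0193), with 0.68 on design 026655 and 1.18 on design 028005. Its processed signal was at most 39.3. With normexp background correction the difference was 0.24 and the call was lost (adjusted p = 0.276). That correction adds an offset of 50, above this processed signal, which by itself shrinks differences of dim probes. This setting therefore cannot tell whether the rise holds. Without skin replicate 1, without wound replicate 2 or without either replicate 3 the call was lost too (adjusted p of 0.0577 to 0.0833).

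Of the matrix proteins that bind hyaluronan, Vcan rose, Hapln1 fell below background, and Acan and Tnfaip6 did not pass. Vcan, the versican core protein of provisional matrix, had relative signals of 3.34, 3.95 and 8.28 in skin cells and of 8.20, 8.61 and 13.1 in wound cells. The groups were separate within each design and met across designs, where skin replicate 3 reached the level of wound replicate 1. Vcan rose 2.04-fold in wound cells (95% confidence interval 1.51 to 2.76; log2 difference 1.03, SE 0.18, adjusted p = 0.00654), with 1.21 on design 026655 and 0.66 on design 028005.

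Acan, the aggrecan core protein of cartilage, had relative signals of 0.369, 0.612 and 0.747 in skin cells and of 0.128, 0.195 and 0.622 in wound cells. Replicates 1 and 2 separated the groups, and wound replicate 3 fell inside the skin range. The difference of -1.15 (SE 0.36, adjusted p = 0.0514) did not pass the threshold, and it was -1.59 on design 026655 and -0.26 on design 028005. The call for Acan turned on the setting: it passed in 8 of 17 alternatives, with adjusted p from 0.0145 to 0.356 over all of them. Among the 8 are design 026655 alone and the omission of either array called replicate 3, which are the same fit.

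Hapln1, the link protein that locks aggrecan and versican onto hyaluronan, was dim in skin cells and not well above background on any wound array. Its relative signals were 0.0322, 0.0360 and 0.0657 in skin cells and 0.00848, 0.0172 and 0.00936 in wound cells. The wound values give only a bound, by which Hapln1 was at least 1.73-fold lower in wound cells (adjusted p = 0.00917, from the fit to values that are below background in wound cells and not from the bound). The bound sets the skin mean (log2 -4.56) against the mean of the lowest signals well above background on the wound arrays (log2 -5.35); the measured wound mean was -6.50. With normexp background correction the difference was -0.33 and the call was lost (adjusted p = 0.141). The offset of 50 in that correction exceeds the processed signals of this probe and by itself shrinks the difference. Vcan and Hapln1 are on chromosome 13 with 0 protein-coding genes between them (GRCm38.p6).

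Tnfaip6, which encodes TSG-6, had relative signals of 72.8, 54.3 and 146.7 in skin cells and of 50.5, 51.3 and 127.1 in wound cells. The wound array was below the skin array of the same number in all 3 replicates, but the ranges overlapped widely. The difference of -0.27 (SE 0.17, 95% confidence interval -0.68 to 0.13, adjusted p = 0.260) did not pass. The other 2 Tnfaip6 probes did not pass either in a fit over 22757 probes, with differences of -0.31 and -0.48 (adjusted p = 0.183 and 0.143); 32% of those probes were called.

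Cd44, the main cell-surface receptor of hyaluronan, rose. Its relative signals were 5.90, 7.53 and 7.19 in skin cells and 25.2, 27.3 and 45.5 in wound cells. The lowest wound array was far above the highest skin array. Cd44 rose 4.61-fold (95% confidence interval 3.26 to 6.52; log2 difference 2.20, SE 0.21, adjusted p = 0.000549), with 1.98 on design 026655 and 2.66 on design 028005, and kept its call in all 17 alternatives tried. By the brightest probes its estimate was above that of Has2. The mean of all probes, however, gave 1.60 for Cd44 and 1.66 for Has2. The values in the authors' deposited table were 1.54 for Cd44 and 1.60 for Has2. For both genes they lay below the mean of all probes by a near equal amount, so they are no separate evidence.

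The arrays hold 17 probes of the 10 genes, and 7 genes have 1 probe each. Cd44 has 4, all listed under the same RefSeq transcript, NM_009851, and they differed in size. In the fit over probes the brightest rose 4.61-fold and a second, A_55_P2166501, rose 3.99-fold (log2 difference 2.00, SE 0.16, adjusted p = 0.000293). The third, A_55_P2166486, rose 2.17-fold (adjusted p = 0.0465), and the fourth, A_55_P2166488, had a 2.12-fold difference that did not pass (adjusted p = 0.0706). Cd44 is spliced into many forms, but the files do not tell which exons each probe reads, and a difference between probes was not tested.

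The 3 probes of Vcan also split. The brightest, listed under NM_001081249, rose 2.04-fold, and A_55_P1960208, listed under NM_172955, rose 2.22-fold (log2 difference 1.15, SE 0.18, adjusted p = 0.00360). A_52_P1044655, listed under that same transcript, did not pass, with a difference of 0.14 (SE 0.45, adjusted p = 0.846); it was dim, with relative signals of 0.0421 to 0.232 over the 6 arrays. For Vcan, 2 of 3 probes thus rose.

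**Figure D3:**
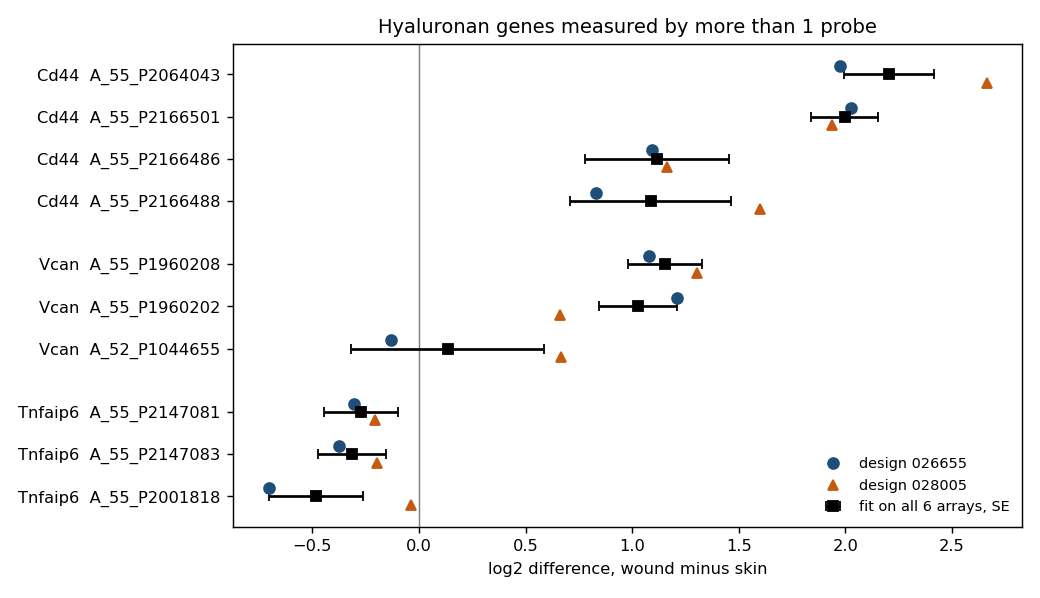
Difference of wound minus skin on the log2 scale for the 10 probes of Cd44, Vcan and Tnfaip6, the genes with over 1 probe: squares give the fit over probes with bars of 1 SE, circles the difference on design 026655 and triangles that on design 028005. The squares of the 4 Cd44 probes all lie above 1, and 1 of the 3 Vcan probes lies near 0.

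The hyaluronidases had estimates of opposite sign, with a fall of Hyal1 and a marginal rise of Hyal2. Hyal1, the lysosomal hyaluronidase, had relative signals of 0.339, 0.364 and 0.542 in skin cells and of 0.100, 0.112 and 0.245 in wound cells. Every wound array lay below every skin array. Hyal1 was 2.90-fold lower in wound cells (95% confidence interval 2.15 to 3.93; log2 difference -1.54, SE 0.18, adjusted p = 0.00130), with -1.73 on design 026655 and -1.15 on design 028005. With normexp background correction the difference was -1.01, and the call held.

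Hyal2, the membrane-anchored hyaluronidase that cuts long chains at the cell surface, had relative signals of 2.34, 1.87 and 5.19 in skin cells and of 3.52, 3.68 and 6.19 in wound cells. Wound was higher than skin in each replicate number, but skin replicate 3 exceeded both wound arrays of the other design. Hyal2 rose 1.52-fold (log2 difference 0.61, SE 0.18, adjusted p = 0.0474), by 0.78 on design 026655 and 0.25 on design 028005. The call is marginal: it was lost in 10 of 17 alternatives, among them the omission of skin replicate 1, skin replicate 2, wound replicate 1 or wound replicate 2 (adjusted p of 0.116 to 0.135) and the fit with the replicate number as a block (adjusted p = 0.0652).

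Hyal1 and Hyal2 are neighbours on chromosome 9 with 0 protein-coding genes between them (GRCm38.p6). Within arrays the log2 signal of Hyal2 minus that of Hyal1 moved by 2.35, 2.68 and 1.40 from skin to wound in replicates 1, 2 and 3. The mean was 2.14 ± 0.66 (SD, n = 3), a 4.42-fold higher ratio of the probe signals. The exact 2-sided permutation p was 0.1, the smallest possible with exchange across designs. As with the synthases, the ratio restates the differences already given and is no separate evidence. Hyal3, on the same chromosome with Naa80 as the 1 coding gene between it and Hyal1, was above background on 1 of 3 skin and 2 of 3 wound arrays and was not tested.

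Hyaluronan genes beyond the 10 were read from a list of 38 in 6 roles, of which 31 were tested. Of these, 16 rose, 3 fell and 12 did not pass, beside 34.1% called, 18.5% higher and 15.6% lower among all genes tested, and the median difference was 0.55. In the fit limited to genes above background on every array, 15 of 22 were called, 11 higher and 4 lower, beside 33.5% of all genes, and the median was 0.21; the other 9 could enter the test through 1 group alone. None of the 19 calls changed direction in the 16 or 17 alternatives run for each, and 14 were lost in none of them or only where the array design term was left out.

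The enzymes that make the sugar precursors rose in part. Of 7, Ugdh, Gfpt1, Gnpnat1 and Pgm3 rose and 0 fell. Gnpnat1, which acetylates glucosamine phosphate, had relative signals of 0.645, 0.758 and 1.66 in skin cells and of 1.83, 1.74 and 4.92 in wound cells. The groups did not overlap, and Gnpnat1 rose 2.68-fold (log2 difference 1.42, SE 0.15, adjusted p = 0.000924). Pgm3, the next enzyme of that branch, rose by 1.40 and Ugdh, which makes UDP-glucuronic acid, by 1.10. Gfpt1, the entry enzyme of the hexosamine branch, rose by 0.77, a call lost with the mean of all probes (0.61, adjusted p = 0.254), without skin replicate 1 and in the authors' deposited table. Ugp2, Uap1 and Gfpt2 did not pass, with differences of 0.55, -0.16 and -0.29.

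Of 4 other lecticans and link proteins tested, Bcan and Hapln4 rose and Hapln3 fell. Bcan, the brevican core protein best known from brain, had relative signals of 0.0205, 0.00896 and 0.0488 in skin cells, where 1 of 3 arrays measured it, and of 0.195, 0.192 and 0.268 in wound cells. The groups did not overlap, and the difference was 3.38 (SE 0.40, adjusted p = 0.00139), or 1.23 with normexp background correction. Hapln3, a link protein found in many tissues, had relative signals of 1.32, 1.63 and 2.27 in skin cells and of 0.520, 0.784 and 0.993 in wound cells. It was 2.29-fold lower without overlap (log2 difference -1.20, SE 0.20, adjusted p = 0.00593). Hapln4 rose by 1.69, with 1 of 3 skin arrays above background, and lost its call with normexp (0.40). Ncan did not pass (-0.68, adjusted p = 0.274), and Hapln2 was above background on 0 arrays.

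TSG-6 takes the chains it moves from the inter-alpha-trypsin inhibitors. Of 5 tested genes of this role, Itih4, Ambp and Ptx3 rose and Itih5 fell. Ptx3, a pentraxin that crosslinks heavy chains on hyaluronan, had relative signals of 2.13, 1.33 and 4.95 in skin cells and of 9.91, 10.8 and 16.9 in wound cells. The groups did not overlap, and Ptx3 rose 5.05-fold (log2 difference 2.34, SE 0.26, adjusted p = 0.00113). Ambp, the bikunin precursor, had an estimate of 3.22 (SE 0.44, adjusted p = 0.00233). It rests on skin values of which 1 of 3 was above background. With normexp it was 0.94, below Ptx3 at 2.34, though the offset in that correction shrinks the differences of dim probes. Itih5, a heavy chain gene, had relative signals of 5.62, 6.10 and 11.1 in skin cells and of 2.49, 2.31 and 5.63 in wound cells. It was lower on every design but met across designs, and it fell 2.28-fold (log2 difference -1.19, SE 0.15, adjusted p = 0.00184). Itih4 rose by 1.44, Itih2 did not pass (0.08), and Itih1 and Itih3 were not tested.

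Of 8 other receptors and binding proteins, Lyve1, Stab1 and Habp2 rose and Layn fell. Habp2, a secreted serine protease that binds hyaluronan, was well above background on 0 skin arrays, with relative signals of 0.00456, 0.00574 and 0.0125 there and of 0.0616, 0.0529 and 0.144 in wound cells. By this probe, Habp2 rose at least 3.77-fold; the adjusted p of 8.30e-05 comes from the fit to values below background in skin cells, and with normexp the difference was 0.80 (adjusted p = 0.00210). A second Habp2 probe was above background on 1 of 3 skin arrays and 0 of 3 wound arrays, so the bound holds for 1 probe, not for the gene. Layn, the membrane receptor layilin, had relative signals of 0.697, 0.679 and 2.21 in skin cells and of 0.431, 0.498 and 1.24 in wound cells. It fell by 0.66 on the log2 scale (SE 0.15, adjusted p = 0.0190), a call lost on design 026655 alone (adjusted p = 0.0849) and without skin replicate 1 or wound replicate 1. Lyve1, known from lymphatic vessels and macrophages, rose by 2.27 with 1 of 3 skin arrays above background, and Stab1, a scavenger receptor, by 1.43. Hmmr, C1qbp, Habp4 and Stab2 did not pass, and the value of Stab2 rests on 5 arrays because its spot on wound replicate 3 carried an outlier mark.

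Of 4 other degrading enzymes tested, Cemip, Cemip2 and Gusb rose. Cemip, a protein that binds and depolymerises hyaluronan, had relative signals of 0.00611, 0.00644 and 0.0312 in skin cells, where 1 of 3 arrays measured it, and of 0.112, 0.118 and 0.203 in wound cells. The lowest wound array was above the highest skin array, and the difference was 3.70 (SE 0.31, adjusted p = 0.000403), or 1.01 with normexp (adjusted p = 0.000585). Cemip2, a membrane protein related to Cemip, was above background on all 6 arrays, with relative signals of 1.60, 1.85 and 1.92 in skin cells and of 5.06, 7.62 and 8.42 in wound cells. Without overlap it rose 3.84-fold (log2 difference 1.94, SE 0.21, adjusted p = 0.000879) and kept its call in all 17 alternatives. Gusb, a lysosomal exoglycosidase, rose by 0.48 (adjusted p = 0.0492), a call lost in 14 of 17 alternatives. Hexa did not pass, at -0.48, and Hyal3, Hyal4, Spam1 and Hyal5 were not tested.

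Of the 3 linkers that tie CD44 to actin, Msn, which encodes moesin, rose by 0.62 (SE 0.14, adjusted p = 0.0189), a call lost without skin replicate 1, skin replicate 2 or wound replicate 1. Ezr and Rdx did not pass, at -0.19 and -0.24.

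**Figure D4:**
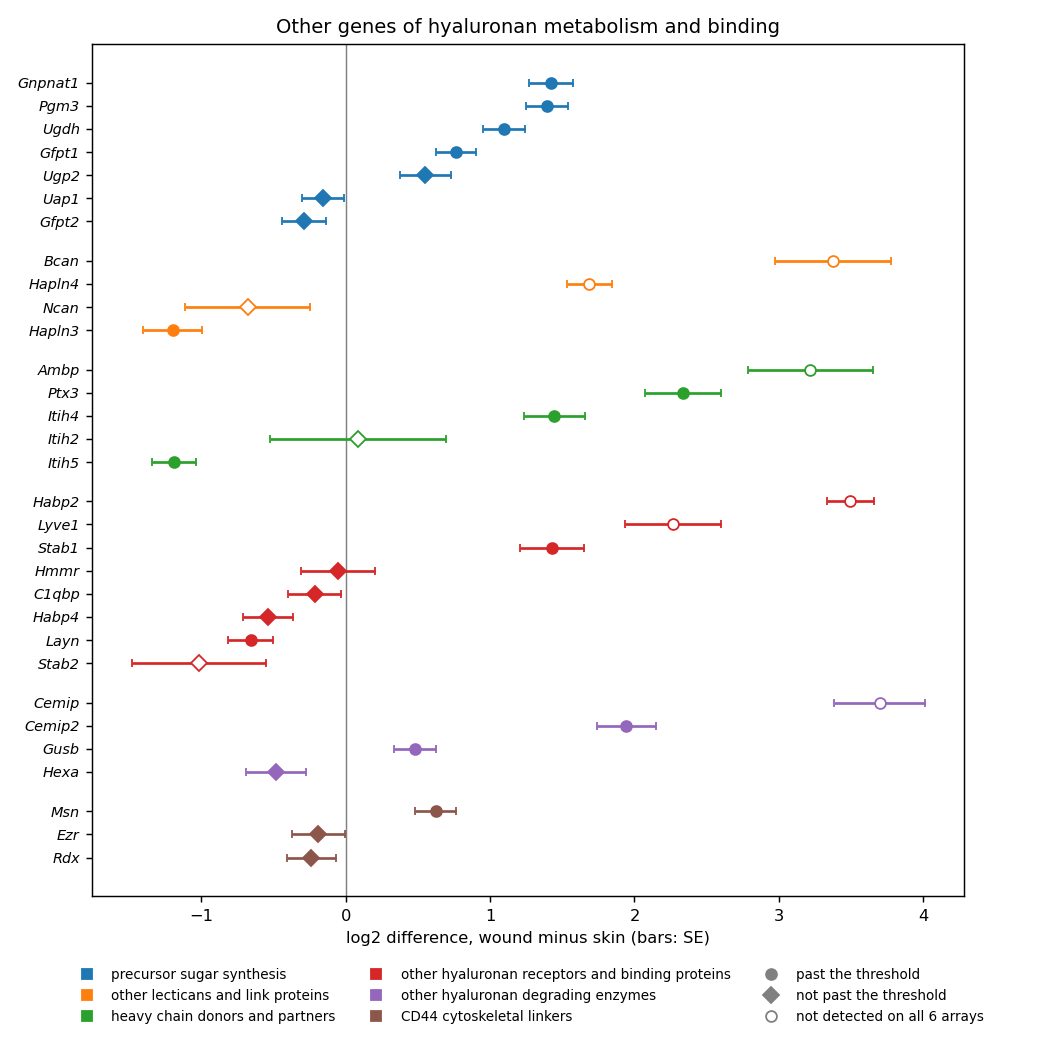
Difference of wound minus skin on the log2 scale for the 31 tested genes of the wider hyaluronan list, coloured by role, with bars of 1 SE, circles for genes past the threshold, diamonds for the others and open markers for genes not detected on all 6 arrays. The highest differences, those of Cemip, Habp2, Bcan and Ambp, belong to genes measured on at most 1 of 3 skin arrays.

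The ADAMTS proteases that cut versican and aggrecan were read in the same way. Of 6 tested, Adamts4, Adamts9 and Adamts15 rose, Adamts8 fell, and Adamts1 and Adamts5 did not pass, at -0.09 and 0.06. Among all genes tested, 34.1% were called, 18.5% as higher and 15.6% as lower. Adamts9 had relative signals of 0.528, 0.653 and 1.14 in skin cells and of 2.92, 3.71 and 4.64 in wound cells. It rose 5.04-fold without overlap (log2 difference 2.33, SE 0.19, adjusted p = 0.000363). Adamts8 had relative signals of 1.79, 1.67 and 2.83 in skin cells and of 0.226, 0.387 and 0.643 in wound cells. It was 5.32-fold lower, also without overlap (log2 difference -2.41, SE 0.24, adjusted p = 0.000699). With the mean of all probes the differences were 1.55 for Adamts9 and -1.32 for Adamts8. Adamts15 rose by 1.75 and Adamts4 by 0.96. The Adamts4 call was lost in 7 of 17 alternatives. Among them were quantile normalization and the omission of skin replicate 1, skin replicate 2 or wound replicate 1.

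Markers of other cell types were counted in the same way, beside 34.1% called, 18.5% higher and 15.6% lower among all genes tested. In the lists of this and the next paragraph, the highest summed relative signal of each group lay on design 028005. Keratinocyte markers in skin cells were the exception, with their highest sum on skin replicate 2. Markers of pericytes and vascular smooth muscle had 9 of 12 higher and 0 lower in wound cells, with a median difference of 3.41 and summed relative signals of 33.8 to 67.4 in skin cells and 94.9 to 246.2 in wound cells; of the brightest, Rgs5 differed by 4.78 and Mcam by -0.01. Keratinocyte markers had 8 of 11 lower and 0 higher, with summed signals of 17.9 to 39.5 in skin cells and 4.39 to 10.4 in wound cells (Krt10 -3.99, Trp63 -0.27). Of the dermal papilla and sheath markers, which bear on Vcan as it is a gene of the hair follicle dermal papilla, 7 of 14 fell and 1 rose, with sums of 38.4 to 103.4 in skin cells and 16.8 to 70.8 in wound cells (Wif1 -5.96, Notum 0.32). Of the chondrocyte markers, which bear on Acan and Hapln1, 4 of the 8 tested of 15 rose and 0 fell (Sox5 -0.23, Sox9 2.70). Their sums were 32.5 to 166.8 in skin cells and 33.7 to 80.6 in wound cells. Sox5 alone made up most of them, at 31.8 to 165.3 in skin cells and 31.6 to 76.9 in wound cells. Col9a3, Matn1, Sox6 and Ucma were above background on 0 arrays. The part of these cells in the results was not tested.

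White blood cell markers, which bear on Cd44, Lyve1 and Stab1, had 0 of 10 higher and 2 lower (Itgam 0.18, Csf1r -0.93). Their summed signals were 24.8 to 125.4 in skin cells and 24.5 to 106.2 in wound cells. Itgam alone made up most of these sums, at 18.2 to 99.6 in skin cells and 18.7 to 91.8 in wound cells. Ptprc, the CD45 gene by which the sort removed white blood cells, had relative signals of 0.0223 to 0.0463 over the 6 arrays and was well above background on 3 skin arrays and 1 wound array. Endothelial markers, which bear on Lyve1 as well, had 3 of 8 higher and 0 lower (Kdr 0.16, Egfl7 1.68). Their sums were 4.03 to 17.4 in skin cells and 6.41 to 15.2 in wound cells. Pecam1, the CD31 gene, had relative signals of 0.192 to 0.379. The fibroblast list had 1 of 10 higher and 2 lower, with sums of 1370 to 4619 in skin cells and 1274 to 4137 in wound cells.

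**Figure D5:**
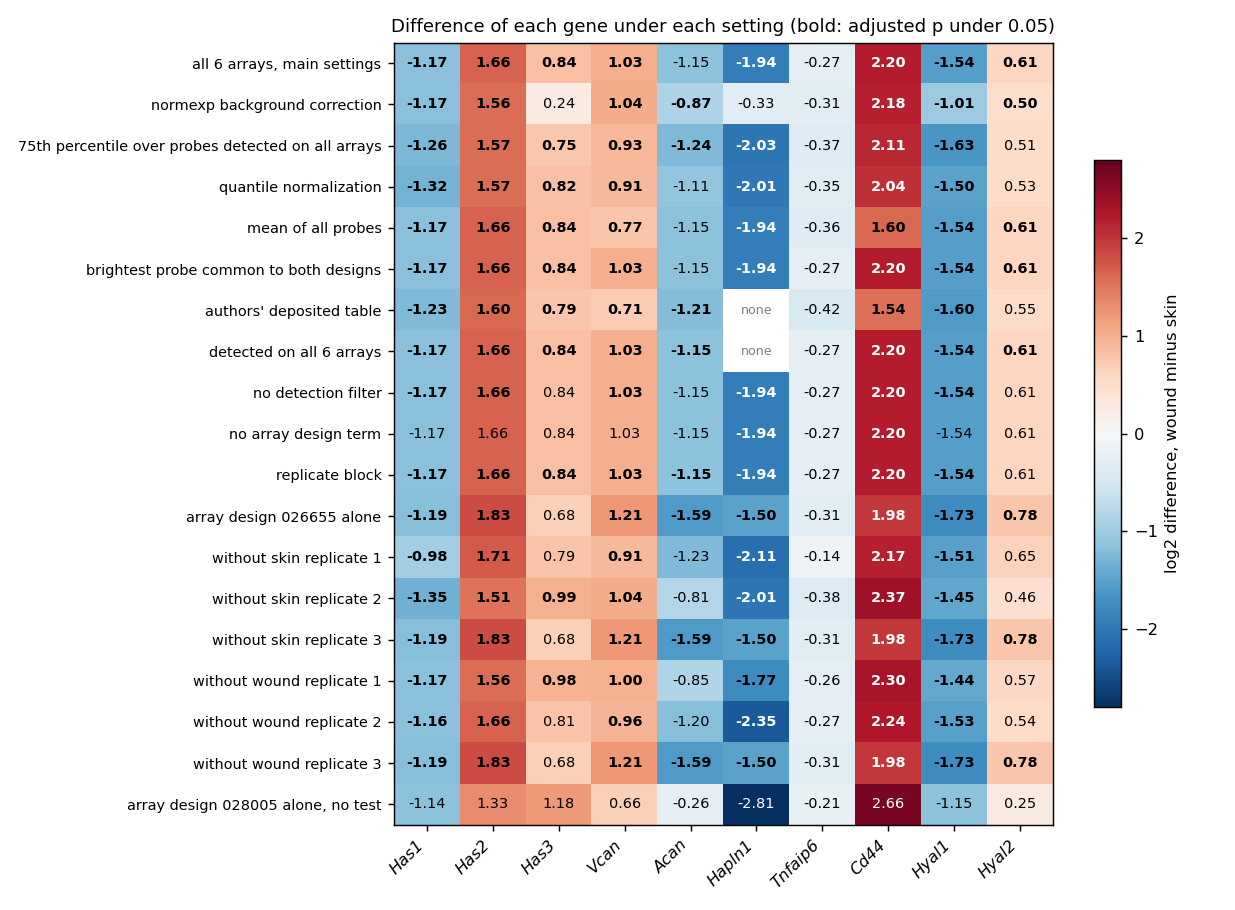
Difference of wound minus skin on the log2 scale for the 10 genes (columns) under each processing alternative, coloured and printed in each cell, with bold type where the adjusted p is under 0.05; the last line, design 028005 alone, has no test. Cd44 is bold in every tested setting, Tnfaip6 in none, and Hyal2, Has3 and Acan in some.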

How the data were processed

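Per the file headers, Agilent Feature Extraction 10.7.3.1 gave the authors' spot intensities, on designs that name build mm9; the deposited intensity values are linear and not scaled between arrays. The authors' deposited gene table, made with GeneSpring 14.5 per the series' design text, matched log2 differences of the scanner values (slopes 1.00, 1.00 and 0.976 over 16544 genes) and was used as an alternative. Its rule for joining probes is not stated. For members with several probes its differences followed the mean of all probes (Cd44 1.54 against 1.60, Vcan 0.71 against 0.77, Tnfaip6 -0.42 against -0.36). Habp2 of the wider list did not (1.45 against 2.02). The authors' column medians are -0.21, -0.25 and -0.25 (skin) and -0.28, -0.27 and -0.23 (wound). Their gene values appear centred, so the authors' table gives differences only. The design text names a human array, while the organism label is mouse.

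Control and outlier spots were left out, probes were named through the authors' table and RefSeq accessions (30621 of 39429 and 30647 of 55681 probes), and log2 of the processed signal was taken minus the array's 75th percentile. The brightest probe stood for a gene and was the same on both designs for 97% of genes. The test was limma 3.58.1 (R 4.3.3) with the design, which is also the slide and scan, as a term (3 residual and 6.25 total degrees of freedom), checked on simulated data. Intervals are 95% limits. Standard errors (SE) come from the model. The exact permutation test was used for ratios within arrays. Alternatives covered background correction, scaling, probe and detection rules, the design term, a replicate block and leaving out arrays. The scanner files used have no mean signal, so normexp (offset 50) used the median signal. The offset shrinks the differences of probes with signals near or below it. Normexp values of dim genes are thus smaller by construction.

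All 10 genes, the genes past the threshold in each role, the 2 brightest markers of each list and Acta2 were named by rule. The fibroblast markers past the threshold were named as well. The genes and lists were chosen with earlier results of these data known. A gene of the pathway was left off the wider list and is not reported here. Python 3.11.15, pandas 2.3.3 and matplotlib 3.10.9 made the tables and figures.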

Additional observations from a re-analysis of the deposited data

How the results depend on the processing

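None of the 8 calls among the 10 genes and none of the 19 of the wider list changed direction under the alternatives run. The median of the 10 genes did, at -0.04 with normexp, and lower calls outnumbered higher ones with the 75th percentile of detected probes (2599 higher, 2989 lower), in the authors' deposited table (2493, 2710) and without the design term (850, 914). Leaving out the array design term moved the counts most: 1764 of all genes in place of 5700, 2 of the 10 genes (Cd44 and Hapln1) in place of 8, and 7 genes of the wider list in place of 19, since the offset between designs then enters the SE. Leaving out 1 array gave 3758 to 5026 called genes (the lowest without skin replicate 1), 6 to 8 of the 10 genes and 15 to 19 of the wider list. Without either replicate 3, the fit is that of design 026655 alone. The counts of alternatives given for each gene thus hold this fit more than once. With the replicate number as a block, 5604 genes, 8 of the 10 genes and 19 of the wider list were called, with Hyal2 lost (adjusted p = 0.0652) and Acan gained (0.0447). On design 026655, the deviations of skin and wound replicate 1 from their group means correlated with r = 0.153 over 16660 genes. With 2 arrays a group, replicate 2 mirrors replicate 1, so this is 1 contrast. Exchanging the numbers within 1 group would only turn its sign, so it cannot show a pairing. The labels do not say that a number marks a shared source, and whether it does was not settled. Has1, Has2, Vcan and Hyal1 lost their calls in 1 of 17 alternatives, that without the design term, Has3 in 8 and Hapln1 in 1 of 15. Other scalings shifted the median of all genes by at most 0.093. Signal over background limits Has3 and Hapln1, and 3 arrays a group limit the precision.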

Other observations

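Has2os, the antisense transcript of Has2, was above background on all 6 arrays. Its relative signals were 0.184, 0.125 and 0.604 in skin cells and 0.225, 0.253 and 0.428 in wound cells. The groups overlapped, and its difference of 0.27 (SE 0.29, adjusted p = 0.510) did not pass, with 0.66 on design 026655 and -0.50 on design 028005. Whether it differs from Has2 was not tested.

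In the mouse genome each lectican gene lies beside a link protein gene. In GRCm38.p6 the pairs Vcan and Hapln1 (chromosome 13), Acan and Hapln3 (chromosome 7), Bcan and Hapln2 (chromosome 3) and Ncan and Hapln4 (chromosome 8) have 0 protein-coding genes between them. Wound minus skin was 1.03 for Vcan beside a Hapln1 that fell, -1.15 for Acan beside -1.20 for Hapln3, and -0.68 for Ncan beside 1.69 for Hapln4, where Acan and Ncan did not pass the threshold. Bcan differed by 3.38 beside a Hapln2 not above background on any array. These values rest in part on signals at background. Hapln1 was well above it on 0 wound arrays, Ncan on 1 of 3 wound arrays, and Hapln4 and Bcan on 1 of 3 skin arrays. With normexp background correction, Hapln1 was at -0.33 and Hapln4 at 0.40, both without a call, and Bcan was at 1.23. The offset in that correction by itself shrinks differences at such dim signals.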
